A study of Schmidtea mediterranea with 35 samples.

Results

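The 200 transcripts described here were those whose level in planarian stem cells moved least between 9 groups of animals, defined by 3 RNAi treatments and 3 days. They were taken from a table of 25462 transcripts by a fixed rule on RPKM, a read number scaled by transcript length and library size. For each group the median RPKM over its libraries was put on the scale log2(RPKM + 1). Transcripts with a median of at least 10 RPKM in all 9 groups were kept, 5715 in all. The 200 with the highest median over the control libraries were left out, which left 5515. The 200 with the smallest standard deviation (SD) of the 9 group values are called the steady transcripts here, and the remaining 5315 are called the other expressed transcripts. Steadiness over the groups was therefore what the rule chose, and it is given as a description with no test.

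Planarians of the species Schmidtea mediterranea, all of the CIW4 clonal line, were fed bacteria that made double-stranded RNA against p53, zfp1 or, as a control that targets no planarian gene per the labels, unc22. All groups received 3 feedings, 3 days apart. Neoblasts were sorted in the X1 gate of Hoechst-stained cells, and their polyA RNA was sequenced on days 6, 9 and 13. Each of the p53 RNAi, zfp1 RNAi and unc22 RNAi groups held 4 libraries on each day, except unc22 RNAi on day 13, which held 3. Nothing in the labels says whether libraries of a group came from separate batches of animals, so p-values cover only the spread from library to library, which can be technical.

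Neoblasts are the only dividing somatic cells of planarians and give rise to all other cell types of the animal. The X1 gate collects those with a replicated genome, zfp-1 encodes a zinc finger protein of neoblasts on the way to epidermis, and p53 is the planarian relative of the vertebrate tumour suppressor. Transcripts that keep their level across treatments matter in such experiments because quantitative PCR expresses a gene of interest relative to a steady reference gene. In libraries of sorted cells, fewer cells of a type and less RNA per cell cannot be told apart. The table carries assembly identifiers that it does not pair with gene names or sequences, and no annotation was used here. The steady transcripts are therefore described by level, length and spread, and neither their functions nor the knockdown of p53 and zfp1 nor cell type markers could be checked.

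Whole reads recovered from the RPKM values summed to between 4391559 and 26115474 per library. 3 libraries stood apart in the number of transcripts at 0, namely replicate 1 of zfp1 RNAi day 6 with 4945, replicate 5 of zfp1 RNAi day 13 with 5021 and replicate 5 of unc22 RNAi day 13 with 4546. They were picked as the 3 with the most. The other 32 libraries had 185 to 3588, the latter in replicate 4 of zfp1 RNAi day 6, which had the fewest reads. The most abundant transcript took 25.2 to 32.3% of the reads of the 3 libraries, against 12.9 to 20.5% in the other 32. Fits, replicate spreads and group means are given with and without these 3 libraries below.

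The SD of the 9 group values ran from 0.0339 to 0.0743 on the log2 scale among the steady transcripts, with a median of 0.0643, against a median of 0.162 for the other expressed transcripts. The highest and lowest groups of a steady transcript lay 0.19 apart at the median and 0.29 at most, while this range had a median of 0.50 for the other expressed transcripts. The edge of the set was not a gap. SMED30014647, the last transcript taken, had an SD of 0.07431, and SMED30013475, the first left out, had 0.07436.

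SMED30031471 had the lowest SD of all. After p53 RNAi it stood at 32.2, 36.8, 36.0 and 37.8 RPKM on day 6, at 39.7, 37.5, 35.3 and 45.0 RPKM on day 9 and at 36.4, 34.8, 38.0 and 36.8 RPKM on day 13. After zfp1 RNAi the values were 26.1, 39.9, 34.2 and 49.2 RPKM on day 6, 39.3, 39.9, 34.8 and 37.5 RPKM on day 9 and 37.7, 39.1, 39.9 and 30.5 RPKM on day 13. In the unc22 control they were 33.5, 36.8, 37.4 and 41.1 RPKM on day 6, 43.3, 37.8, 36.3 and 35.1 RPKM on day 9 and 39.7, 38.5 and 23.5 RPKM on day 13. All 9 groups overlapped. Its lowest value of the 35 was in unc22 RNAi day 13 replicate 5 and its highest, 49.2 RPKM, in zfp1 RNAi day 6 replicate 4.

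SMED30005346, the third by SD, was the tightest of the steady transcripts across the 32 libraries, where its highest value was 1.18 times its lowest. After p53 RNAi it stood at 38.6, 40.3, 40.2 and 37.4 RPKM on day 6, at 34.3, 34.5, 38.6 and 39.3 RPKM on day 9 and at 35.1, 38.7, 36.6 and 40.2 RPKM on day 13. After zfp1 RNAi the values were 27.0, 37.4, 35.8 and 38.3 RPKM on day 6, 40.1, 39.3, 37.3 and 37.5 RPKM on day 9 and 38.7, 39.5, 36.9 and 28.8 RPKM on day 13. The unc22 control gave 37.8, 34.9, 37.3 and 34.9 RPKM on day 6, 37.2, 39.1, 37.4 and 35.9 RPKM on day 9 and 36.7, 37.2 and 31.0 RPKM on day 13. The values under 34 RPKM were those of the 3 libraries that stood apart, at 27.0, 28.8 and 31.0 RPKM. SMED30028510, the second by SD, showed the same 3 libraries at the bottom, at 18.0, 14.5 and 12.4 RPKM, below the 22.1 to 32.8 RPKM of the other 32.

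**Figure D1:**
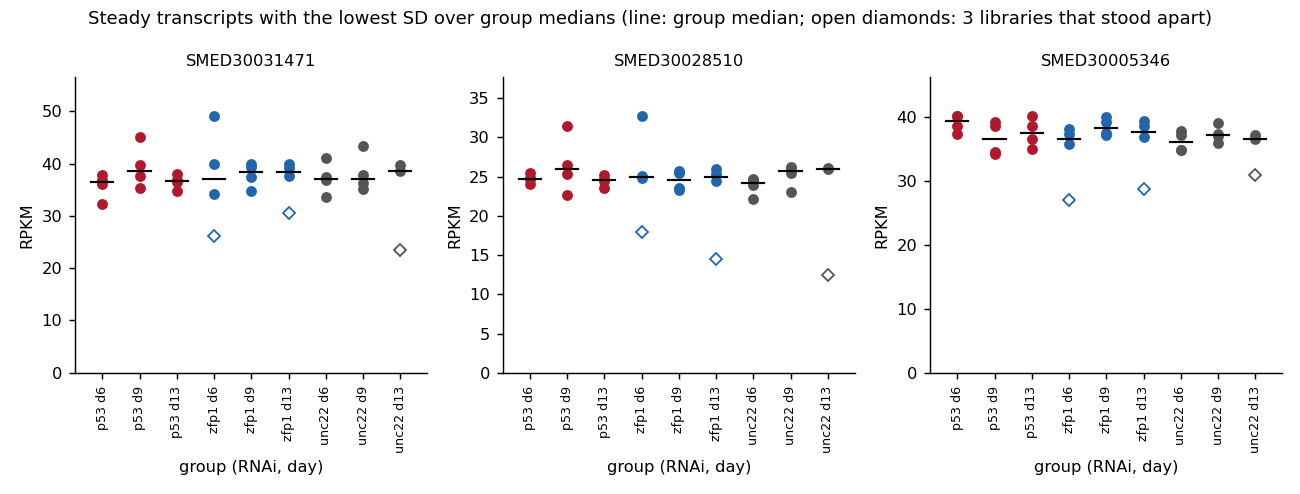
RPKM (linear axis from 0) of the 3 steady transcripts with the lowest SD over groups, by group of RNAi and day, with 1 point per library, a line at each group median and open diamonds for the 3 libraries that stood apart. The group medians lie on nearly 1 level, and the diamonds are the lowest points of their groups, down to 12.4 RPKM for SMED30028510.

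The steady transcripts were of moderate level. Their median over the 11 control libraries ran from 10.5 to 239 RPKM with a median of 19.5 RPKM, against a median of 31.1 RPKM for the other expressed transcripts. 103 of the 200 (51.5%) lay between 10 and 20 RPKM, where 26.3% of the other expressed transcripts lay. 73 lay between 20 and 50 RPKM, and 24 (12.0%) at 50 RPKM or more, against 30.4% of the others. The rule used both the level minimum and the left-out top 200, which bound the levels of all eligible transcripts. The other expressed transcripts reached 452 RPKM, so the upper end of 239 RPKM was not set by these bounds. The distribution inside them came with the choice of a low SD of log2(RPKM + 1). On this scale a pseudocount of 1 RPKM shrinks differences slightly more for low transcripts, and with a pseudocount of 0.1 RPKM the rule took 190 of the same 200.

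SMED30034766 had the highest control level of the steady transcripts. It stood at 261, 228, 227 and 238 RPKM after p53 RNAi on day 6, and at 239, 238, 238 and 259 RPKM in the unc22 control of that day. Its spread was far wider elsewhere, with 136 RPKM in p53 RNAi day 9 replicate 4, 141 RPKM in zfp1 RNAi day 6 replicate 4 and 492 RPKM in unc22 RNAi day 13 replicate 5. Its group medians had an SD of 0.0615 all the same. SMED30029848, at the low end, ranged from 7.89 to 13.5 RPKM over all 35 libraries, and its lowest value was that of zfp1 RNAi day 6 replicate 1. SMED30028047, the next lowest, lay at 9.40 to 12.9 RPKM in 32 libraries and at 5.37, 4.20 and 5.46 RPKM in the 3 that stood apart.

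The steady transcripts were long, a property that the rule did not use directly. The lengths, recovered from the RPKM values, ran from 597 to 9868 bases with a median of 2267.5 bases and quartiles of 1641 and 2927.5 bases. The other expressed transcripts had a median of 1408 bases and quartiles of 911 and 2124 bases, and 166 of the 200 (83.0%) steady transcripts were longer than that median. The difference held at each level. Between 10 and 20 RPKM the medians were 2584 bases for the steady and 1628.5 bases for the other transcripts, between 20 and 50 RPKM 2118 and 1411 bases, and at 50 RPKM or more 1666 and 1234 bases.

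When the 5515 eligible transcripts were cut by length into 4 classes of like size, the share that was steady went up with each class. 6 of 1381 transcripts (0.434%) of 124 to 924 bases were steady, 30 of 1378 (2.18%) of 925 to 1436 bases, 62 of 1377 (4.50%) of 1438 to 2164 bases and 102 of 1379 (7.40%) of 2165 to 17018 bases. At a given RPKM a longer transcript has more reads, and the counting error of RPKM falls with reads. Here the steady transcripts combined more length with a lower level, and their median read number, 562 per library, was close to the 542 of the other expressed transcripts. The part of read number in the choice was not tested.

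The spread between libraries of a group was not in the rule, which used group medians only, but the medians come from the same libraries, so a noisy transcript is less likely to be chosen. The replicate SD of a transcript is given here as the root mean square over the 9 groups of the SD of log2(RPKM + 1) within a group. Its median was 0.199 for the steady transcripts, with a range of 0.0911 to 0.625, and 0.293 for the other expressed transcripts. 165 of the 200 steady transcripts (82.5%) lay below the others' median. Without the 3 libraries that stood apart the medians were 0.119 for the steady transcripts and 0.188 for the others, and 186 of 200 (93.0%) lay below the others' median.

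At matched level the order was the same, with medians of 0.204 for steady and 0.279 for other transcripts between 10 and 20 RPKM, 0.197 and 0.292 between 20 and 50 RPKM, and 0.185 and 0.303 at 50 RPKM or more. The SD that counting alone gives at the recovered read numbers had a median of 0.0657 for the steady and 0.0668 for the other transcripts. Over the 32 libraries 119 of 200 steady transcripts (59.5%) had a replicate SD of less than 2 times their counting SD. The counting SD was taken on log2 reads over all 35 libraries. The same share was not counted for the other expressed transcripts, so whether it is particular to the steady ones is not known.

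**Figure D2:**
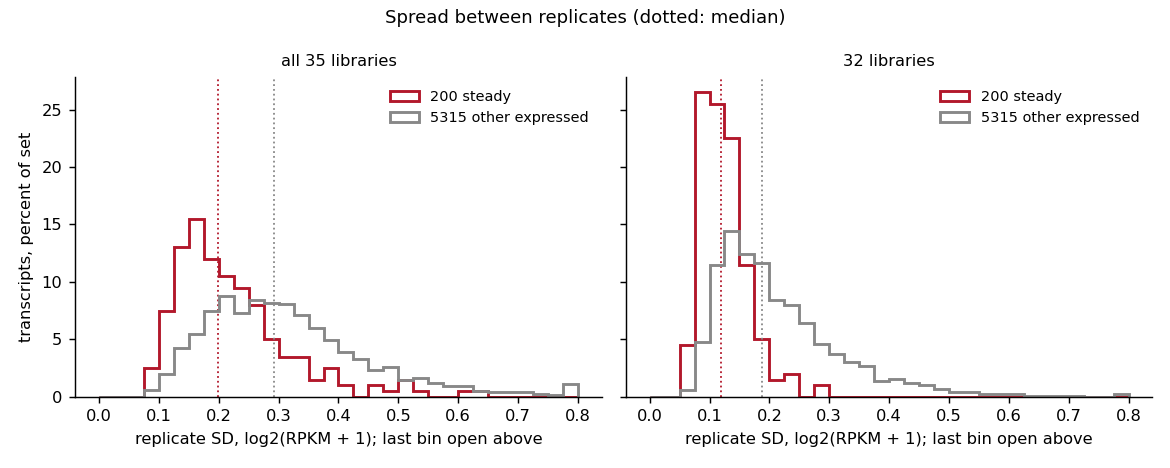
Distribution of the replicate SD of log2(RPKM + 1) in percent of each set, with dotted lines at the medians, for the steady and the other expressed transcripts over all 35 libraries and over 32 libraries without the 3 that stood apart. The steady transcripts have the lower median in both, 0.199 against 0.293 over 35 libraries and 0.119 against 0.188 over 32.

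The steady transcripts differed among themselves in this spread. SMED30015850, a transcript of 2118 bases, had the lowest replicate SD. It stood at 51.4, 46.1, 48.6 and 51.6 RPKM on day 6, 49.6, 56.2, 60.8 and 57.7 RPKM on day 9 and 49.3, 51.3, 44.7 and 51.0 RPKM on day 13 after p53 RNAi. After zfp1 RNAi it stood at 49.6, 46.7, 53.6 and 55.4 RPKM on day 6, at 52.2, 55.5, 45.5 and 47.9 RPKM on day 9 and at 50.0 to 57.3 RPKM on day 13. The unc22 control gave 49.8, 48.7, 47.8 and 49.2 RPKM on day 6, 46.1, 54.8, 49.5 and 52.1 RPKM on day 9 and 49.6, 48.0 and 49.8 RPKM on day 13. The 3 libraries that stood apart, at 49.6, 57.3 and 49.8 RPKM, lay inside the range of the other 32 for this transcript, 44.7 to 60.8 RPKM. SMED30028462, of 1599 bases, was next with a replicate SD of 0.0946 and values of 15.4 to 20.6 RPKM in all 35 libraries.

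At the other end, SMED30034706 and SMED30027149 had replicate SDs of 0.625 and 0.621. SMED30034706 stood at 0.265 RPKM, a value of 3 reads, in zfp1 RNAi day 6 replicate 1, where the other replicates of the group stood at 11.8, 12.3 and 13.1 RPKM. It was also low in zfp1 RNAi day 13 replicate 5, at 6.81 RPKM beside 11.5, 12.6 and 14.1 RPKM, and in unc22 RNAi day 13 replicate 5, at 5.57 RPKM beside 11.6 and 12.8 RPKM. It was the only steady transcript with fewer than 10 reads in any library, and no steady transcript was at 0 in any. SMED30027149 stood at 2.30, 12.4 and 10.7 RPKM in the same 3 libraries and at 22.4 to 34.9 RPKM in the other 32. Without the 3 libraries the replicate SDs of SMED30034706 and SMED30027149 were 0.122 and 0.116, close to the median of the steady transcripts.

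The ratio of the highest to the lowest RPKM of a transcript shows how far steadiness of group medians carried to single libraries. Over the 32 libraries this ratio was under 1.5 for 107 of 200 steady transcripts (53.5%) and for 374 of 5315 other expressed transcripts (7.04%). It was under 2 for 188 steady transcripts (94.0%) and for 48.9% of the others. Over all 35 libraries it was under 1.5 for 17 steady transcripts (8.5%) and 41 others (0.771%), and under 2 for 86 steady transcripts (43.0%) and 13.5% of the others. Many of the extreme values lay in the 3 libraries that stood apart. 127 of 200 steady transcripts (63.5%) had their lowest value in 1 of these 3, against 29.2% of the other expressed transcripts. 68 (34.0%) had their highest value there, against 67.4% of the others.

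In each library the deviation of a steady transcript was taken as its log2(RPKM + 1) minus its mean over the 32 libraries. The median deviation of the 200 lay between -0.07 and 0.09 in each of the 32, and the SD among the 200 between 0.0658 and 0.279. In zfp1 RNAi day 6 replicate 1 the median deviation was -0.36 for the steady transcripts and 0.18 for the other expressed transcripts. It was -0.06 and 0.40 in zfp1 RNAi day 13 replicate 5, and -0.18 and 0.45 in unc22 RNAi day 13 replicate 5. The SD among the 200 was 0.650, 0.559 and 0.649 in these 3 libraries. The medians of the steady transcripts lay below those of the other expressed transcripts there, but the sets differ in length. Among the eligible transcripts of 2165 bases or more, the median deviation in zfp1 RNAi day 6 replicate 1 was -0.72 for the steady ones and -0.69 for all. It was -0.38 for the steady and -0.66 for all of that length in zfp1 RNAi day 13 replicate 5, and in unc22 RNAi day 13 replicate 5 it was -0.52 and -0.26. In that length class the steady transcripts thus had no common direction over the 3 libraries, but in the next 2 classes they lay lower in each. From 1438 to 2164 bases their medians were -0.04, 0.11 and 0.05, against -0.02, 0.19 and 0.35 for all, in the order above. From 925 to 1436 bases they were 0.16, 0.55 and 0.54, against 0.38, 0.71 and 0.61. From 124 to 924 bases, with 6 steady transcripts, they were 0.66, 0.78 and 0.69, against 0.81, 1.23 and 0.68.

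All 200 steady transcripts lay within 1.5-fold of their own mean in 30 of the 32 libraries. The exceptions were p53 RNAi day 9 replicate 4 with 191 and zfp1 RNAi day 6 replicate 4 with 189. In zfp1 RNAi day 6 replicate 1 the count was 120, in zfp1 RNAi day 13 replicate 5 it was 138 and in unc22 RNAi day 13 replicate 5 it was 127. 28, 9 and 22 steady transcripts were at or under 1/2 of their mean in these 3, and 0, 4 and 6 were at 2 times it or more, while none of the 200 crossed either line in the other 32. 26 were lower by 1.5-fold or more in all 3 libraries and 5 higher. 72 of 200 (36.0%) stayed within 1.5-fold of their mean in all 35 libraries, against 13.4% of the other expressed transcripts.

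**Figure D3:**
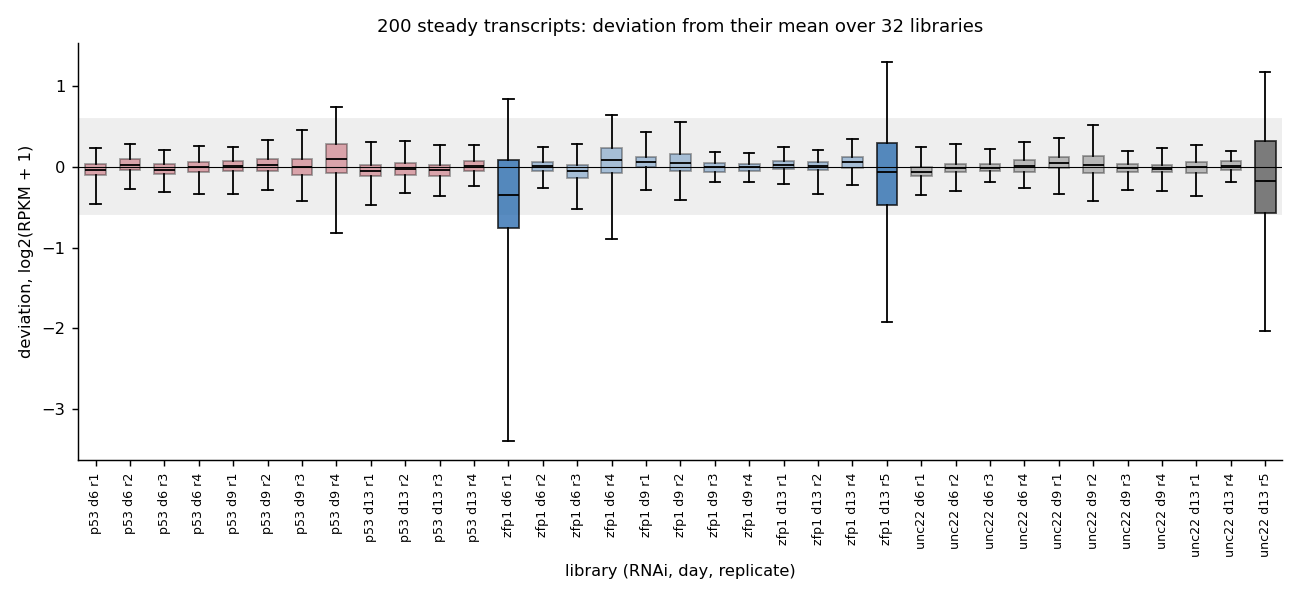
Deviation of the 200 steady transcripts from their own mean over 32 libraries, in log2 units, for each of the 35 libraries by group, as boxes from the lower to the upper quartile with a line at the median and whiskers to the lowest and highest values, and a grey band for 1.5-fold. The 3 libraries that stood apart have wide spreads and medians of -0.36, -0.06 and -0.18, while the other 32 medians lie between -0.07 and 0.09.

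The reads that fell on the steady transcripts as a set followed the same division. They made up 0.804% of all reads in zfp1 RNAi day 6 replicate 1, 0.841% in zfp1 RNAi day 13 replicate 5 and 0.751% in unc22 RNAi day 13 replicate 5. In the other 32 libraries the share was 1.19 to 1.68%. The deposited values had been scaled by library, with a divisor of 0.617 to 0.812 times the total reads in the 3 libraries and of 0.885 to 1.21 times in the others, which raises RPKM where the divisor is small. Even so the median RPKM of the steady transcripts was 15.7, 19.4 and 17.8 in the 3 libraries and 18.4 to 22.2 in the others.

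Among the steady transcripts the deviation in the 3 libraries ran with length. Across the 200, Spearman's rho between length and deviation was -0.76 in zfp1 RNAi day 6 replicate 1, -0.72 in zfp1 RNAi day 13 replicate 5 and -0.81 in unc22 RNAi day 13 replicate 5. Over the other expressed transcripts these values were -0.75, -0.71 and -0.47. In the remaining 32 libraries rho among the steady transcripts lay between -0.40 and 0.44, and it was 0.44 in both p53 RNAi day 9 replicate 4 and zfp1 RNAi day 6 replicate 4. Over the other expressed transcripts it lay between -0.58 and 0.49 in these 32. Its lowest value there was thus beyond the -0.47 of unc22 RNAi day 13 replicate 5. These are correlations across transcripts of 1 library, which share that library's preparation and are no replicates.

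The longest 100 steady transcripts, of 2269 bases or more, and the shortest 100, of 2266 bases or less, parted in these libraries. In zfp1 RNAi day 6 replicate 1, 98 of the longest 100 lay below their mean, with a median deviation of -0.73, and 44 of the shortest 100, with a median of 0.05. In zfp1 RNAi day 13 replicate 5 the counts were 79 and 30 and the medians -0.38 and 0.21, and in unc22 RNAi day 13 replicate 5 they were 92 and 26 with -0.53 and 0.27. 75 of the longest 100 lay below their mean in all 3 libraries and 0 above it in all 3. Of the shortest 100, 44 lay above in all 3 and 13 below.

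**Figure D4:**
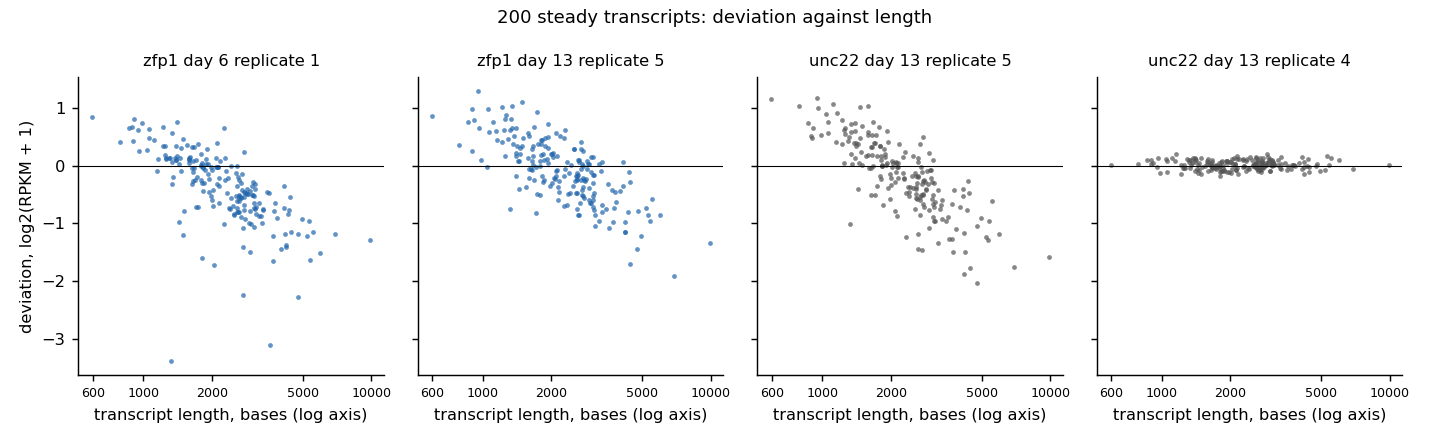
Deviation in log2 units against length in bases (log axis) for the 200 steady transcripts, 1 point each, in the 3 libraries that stood apart and in unc22 RNAi day 13 replicate 4. The points run downward with length in the first 3 panels, with rho of -0.76, -0.72 and -0.81, and stay level around 0 in the last, with rho of -0.02.

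SMED30023820, the longest at 9868 bases, stood at 4.65 RPKM in zfp1 RNAi day 6 replicate 1, 4.49 RPKM in zfp1 RNAi day 13 replicate 5 and 3.61 RPKM in unc22 RNAi day 13 replicate 5. Its other 32 values, 11.2 to 15.2 RPKM, did not overlap these. SMED30026073, the shortest at 597 bases, went the other way, with 266, 269 and 332 RPKM in the same 3 libraries and 118 to 194 RPKM in the other 32. These 3 libraries were picked by their number of transcripts at 0, and the share of the most abundant transcript was also higher in them. The part of either in this pattern was not tested.

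By group, the median deviation of the steady transcripts' group medians lay between -0.02 and 0.03 in all 9 groups, values that the rule itself fixed close to 0. Within this narrow band the counts differed between groups. On day 6, 74 of 200 were above their own mean over the groups after p53 RNAi, 67 after zfp1 RNAi and 73 in the unc22 control. On day 9 the counts were 136, 135 and 104. On day 13 they were 70 after p53 RNAi, 137 after zfp1 RNAi and 102 in the control. The lowest of the 9 groups was most often p53 RNAi on day 13, for 48 steady transcripts, followed by zfp1 RNAi on day 6, for 42. The highest was the control on day 13 for 35 and zfp1 RNAi on day 9 for 34. Nearly as many, 33 and 32, were highest in p53 RNAi on day 9 and zfp1 RNAi on day 13. All these counts rank the group medians that the rule used, and the other expressed transcripts were not counted. No pattern by treatment or day is read from them.

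The median RPKM of the 200, averaged over libraries, was 19.4 ± 0.481 after p53 RNAi, 19.1 ± 2.68 after zfp1 RNAi and 19.2 ± 0.518 in the control on day 6 (SD, n = 4 each). On day 9 it was 20.2 ± 1.21, 20.1 ± 0.360 and 19.8 ± 0.435 RPKM (SD, n = 4 each). On day 13 it was 19.1 ± 0.431 after p53 RNAi and 19.8 ± 0.382 after zfp1 RNAi (SD, n = 4 each), and 19.2 ± 1.24 in the control (SD, n = 3). Without the libraries that stood apart the means were 20.3 ± 1.76 RPKM after zfp1 RNAi on day 6 (SD, n = 3), 19.9 ± 0.370 after zfp1 RNAi on day 13 (SD, n = 3) and 19.9 ± 0.0512 in the control on day 13 (SD, n = 2). The rule held these group means close together, and no test was made between them. The other expressed transcripts had median deviations of -0.11 after p53 RNAi, 0.07 after zfp1 RNAi and 0.10 in the control on day 13.

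Each knockdown was set against the control on each day with limma across the 19206 transcripts that reached 1 RPKM or more in 3 or more libraries, and all 200 steady transcripts were among them. The rule had used these contrasts, so nothing is read from the calls beyond their count. 0 of 200 had a Benjamini-Hochberg adjusted p under 0.05 in p53 RNAi against control on day 6, where 1.1% of all tested transcripts had one. The count was also 0 on day 9, where the share of all tested was 3.91%, and on day 13, where it was 17.3%. For zfp1 RNAi against control it was 0 on each day, beside shares of 1.3% on day 6, 3.23% on day 9 and 4.43% on day 13. 19.4% of all tested transcripts were called in at least 1 of these 6 comparisons.

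The comparisons of day 13 with day 6 gave 0 calls among the steady transcripts as well, beside 5.97% of all tested transcripts after p53 RNAi, 1.31% after zfp1 RNAi and 1.71% in the control. By unadjusted p in limma, 0, 2 and 9 steady transcripts were under 0.05 for p53 RNAi on days 6, 9 and 13, beside 6.13%, 13.3% and 30.4% of all tested transcripts. For zfp1 RNAi there were 1, 0 and 3, beside 8.23%, 8.41% and 14.7%. For day 13 against day 6 there were 0 after p53 RNAi, 11 after zfp1 RNAi and 7 in the control, beside 16.6%, 12% and 16%. The limma-voom fit to the recovered reads also called 0 steady transcripts in all 9 comparisons. It called 0.994%, 3.71% and 16.4% of all tested transcripts for p53 RNAi on days 6, 9 and 13, and 1.18%, 3.57% and 5.2% for zfp1 RNAi. For day 13 against day 6 it called 5.61% after p53 RNAi, 1.32% after zfp1 RNAi and 1.58% in the control. On day 13 after p53 RNAi, SMED30017619 came nearest to the threshold, at -0.32 ± 0.12 (SE) on the log2 scale (limma adjusted p = 0.0503), a transcript singled out after its values were seen. Its highest value of all libraries, 98.5 RPKM, was that of unc22 RNAi day 13 replicate 5, a control library that stood apart. Without the 3 libraries that stood apart it was not called. The 9 comparisons share libraries, since each day's controls serve both knockdowns.

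A p above the threshold does not show equal levels, so the 95% intervals of the fold changes were also set beside limits of 1.5-fold in either direction. The rule chose the steady transcripts for small differences between these same groups. Fold changes near 0, and more intervals inside the limits than among other transcripts, follow from that choice and are no independent evidence of equal levels. The counts describe how tightly 3 or 4 libraries a group bounded the differences. After p53 RNAi, 186 of 200 intervals lay wholly inside these limits on day 6, beside 41% of all tested transcripts, 177 on day 9, beside 35.2%, and 144 on day 13, beside 17.9%. After zfp1 RNAi the counts were 164 on day 6, 188 on day 9 and 160 on day 13, beside 39.7%, 42.1% and 26.9%. For day 13 against day 6 they were 182 after p53 RNAi, 171 after zfp1 RNAi and 149 in the control, beside 32.4%, 34.3% and 24.9%. In all 6 comparisons with the control together, 129 steady transcripts (64.5%) had intervals inside 1.5-fold, beside 13.3% of the other expressed transcripts and 7.88% of all tested. For the remaining 71 the libraries do not exclude a difference of that size in at least 1 comparison.

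**Figure D5:**
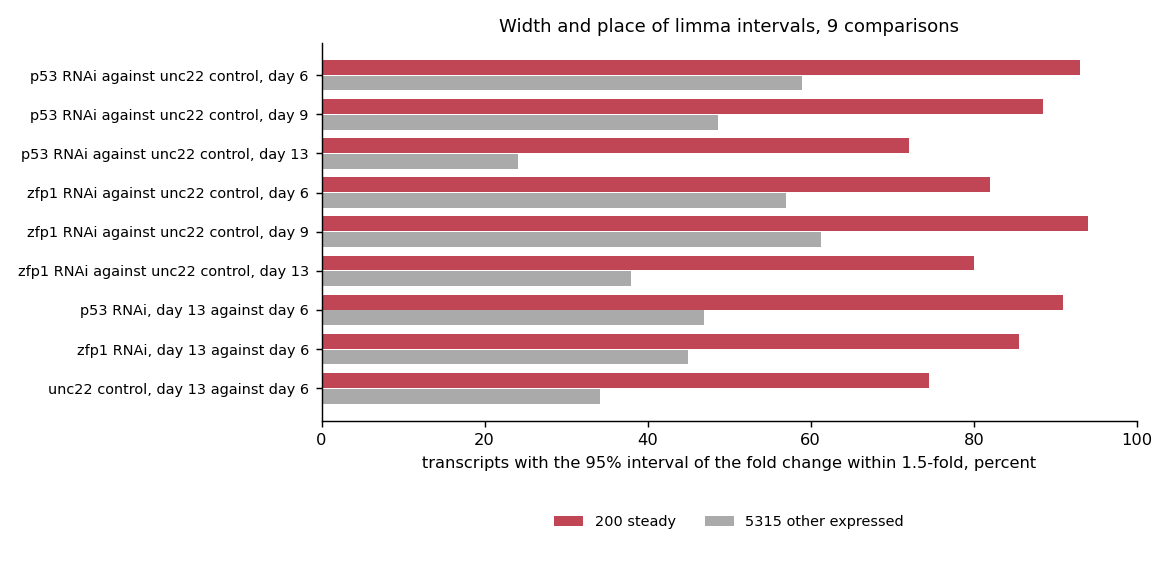
Share in percent of transcripts whose 95% interval of the fold change lay within 1.5-fold, as bars for the steady and for the other expressed transcripts in 9 comparisons. The longer bars of the steady transcripts follow from the rule, which chose them on these group differences, and they reach 188 of 200 for zfp1 RNAi on day 9 and 144 of 200 for p53 RNAi on day 13, the lowest of the 9.

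The intervals were narrower without the 3 libraries that stood apart. The median standard error was 0.148 for the steady transcripts where both groups held 4 libraries and 0.159 against the control of day 13. Without the 3 libraries it was 0.0929 where both groups kept 4 libraries, and 195 of 200 intervals then lay inside 1.5-fold in all 6 comparisons with the control. The median standard error of all tested transcripts also fell, from 0.230 to 0.179 where both groups held 4 libraries. Their share inside 1.5-fold in that fit is not given here, so the 195 have no background beside them. The medians of the log2 fold changes of the 200 lay between -0.08 and 0.10 over the 9 comparisons, and those of all tested transcripts between -0.05 and 0.05. The other expressed transcripts had a median of -0.30 for p53 RNAi on day 13, where 1037 of them (19.5%) were called.

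The largest fitted differences of steady transcripts for p53 RNAi on day 13 rested on 1 control library. SMED30010017, of 6924 bases, stood at 25.1, 28.2, 26.5 and 26.0 RPKM after p53 RNAi, against 24.9, 23.6 and 6.58 RPKM in the control. The fitted log2 difference was 0.70 ± 0.34 (SE), with an interval of 0.00 to 1.39 (limma adjusted p = 0.162). SMED30026073 stood at 135, 139, 125 and 144 RPKM after p53 RNAi, against 141, 150 and 332 RPKM in the control, with a fitted log2 difference of -0.50 ± 0.25 (SE) and an interval that reached up to 0.01 (limma adjusted p = 0.171). The last control value of each is that of unc22 RNAi day 13 replicate 5, and the groups of SMED30026073 overlapped while those of SMED30010017 did not. Without the 3 libraries the log2 fold changes were 0.12 ± 0.09 for SMED30010017 and -0.10 ± 0.16 for SMED30026073 (SE), with intervals of -0.06 to 0.30 and -0.42 to 0.22.

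In the fit to the 32 libraries small differences of a few steady transcripts passed the test, and these were named after their values were seen. By unadjusted p, 0, 11 and 9 were then under 0.05 for p53 RNAi on days 6, 9 and 13, beside 11.1%, 21.9% and 26% of all tested, and 14, 2 and 0 for zfp1 RNAi, beside 15.2%, 12.5% and 13.3%. For day 13 against day 6 there were 5 after p53 RNAi, 7 after zfp1 RNAi and 5 in the control, beside 25.5%, 17.6% and 13.2%. 2 of 200 were then higher after p53 RNAi on day 9, beside 9.46% of all tested transcripts. SMED30034505 stood at 17.7, 17.8, 17.7 and 20.6 RPKM after p53 RNAi, against 14.2, 12.1, 16.0 and 16.3 RPKM in the control, with no overlap and a log2 difference of 0.32 ± 0.09 (SE; limma adjusted p = 0.0180). SMED30024738 stood at 54.0, 65.2, 58.3 and 57.5 RPKM, against 49.0, 47.3, 46.1 and 50.5 RPKM in the control, again with no overlap and a log2 difference of 0.28 ± 0.08 (SE; limma adjusted p = 0.0284). None of the 3 libraries is from day 9, so these fold changes are the same with them.

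SMED30026760 was the 1 steady transcript that was lower after p53 RNAi on day 13 in the 32 libraries, beside 14.4% of all tested. It stood at 79.7, 81.0, 78.2 and 82.4 RPKM after p53 RNAi, against 94.2 and 97.1 RPKM in the 2 remaining controls, with no overlap and a log2 difference of -0.25 ± 0.08 (SE; limma adjusted p = 0.0304). The control library left out had 77.7 RPKM, below all 4 values after p53 RNAi. 2 were lower on day 13 than on day 6 after p53 RNAi, beside 13.5% of all tested. SMED30001318 stood at 36.8, 36.1, 32.1 and 36.3 RPKM on day 13, against 42.4, 48.1, 43.0 and 39.2 RPKM on day 6, and SMED30035276 at 32.8, 33.1, 30.6 and 34.7 RPKM on day 13, against 38.5, 35.1, 37.6 and 41.6 RPKM on day 6. Their log2 fold changes were -0.28 ± 0.08 and -0.21 ± 0.07 (SE; limma adjusted p = 0.0197 and 0.0457), and in neither did the days overlap. All 5 differences were under 1.5-fold.

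Membership itself depended on single libraries and on the statistic. When the rule was applied again without 1 library at a time, it took between 92 and 188 of the same 200, and 27 transcripts were taken in all 35 repeats. The fewest, 92 without unc22 RNAi day 13 replicate 1 and 96 without replicate 4 of that group, came from the group of 3 libraries, where the median of the 2 that remain is their mean and replicate 5 is 1 of them. With the mean of the log2 values in place of the median, 98 of the 200 were taken, and without the 3 libraries that stood apart 131.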

How the data were processed

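RNA of X1 cells was sequenced in 35 libraries of 9 groups, with groups, days and replicate numbers taken from the labels. The authors deposited RPKM for 25462 transcripts. CASAVA 1.8.2, Bowtie and edgeR are listed, per the submitters' processing notes, but not what each did, and the transcript assembly is not given in the sources used here. Read numbers and transcript lengths were recovered from the deposited RPKM with numpy 2.4.6, and 25462 transcripts (100.0%) came out whole within 0.01 reads. Depth was 4391559 to 26115474 reads per library, and counting errors at these read numbers cover counting only.

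RPKM is no count, so differences were fitted on the scale log2(RPKM + 1) by limma 3.58.1 (R 4.3.3), which estimated 9 group means and a trend of the variance with level. This scale understates the change of low transcripts. The 19206 transcripts that reached 1 RPKM or more in 3 or more libraries entered 9 comparisons, and a call needed an adjusted p (Benjamini-Hochberg) under 0.05. In simulated data for p53 RNAi against control on day 13, made for 19206 transcripts, 17.0% of 100 transcripts changed 1.5-fold and 63.0% of 100 changed 2-fold were recovered, with 4.76% of calls false. The changes were placed on transcripts with a mean level of 10 RPKM or more, not on the steady ones in particular.

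The set and the alternatives were chosen with earlier results of these data known. Named transcripts were the 3 with the lowest SD, the last taken and the next, the 2 highest and 2 lowest in control level, the 2 lowest and 2 highest in replicate SD, the longest, the shortest, and the largest rise and fall for p53 RNAi on day 13. Lists of reference genes, cell processes and cell type markers could not be applied without gene names. Replicate numbers recur between groups, and the labels give them no meaning. For zfp1 RNAi against control on day 13, each pair of same-numbered libraries deviated together, with correlations of 0.52, 0.18 and 0.58. On day 9 the correlations for zfp1 RNAi against control were 0.03, 0.61, 0.28 and 0.34. On day 6 they were 0.04, 0.004, 0.001 and 0.31. In the other comparisons some or all pairs had negative correlations. This comes from the values alone. Replicate 5 of zfp1 RNAi day 13 and replicate 5 of its control are among the 3 libraries that stood apart. The deviations on that day were taken from group means that include them. Whether the numbers mark a pairing was not tested. Alternatives were other pseudocounts, filters and scalings, groups fitted alone, a replicate block, limma-voom on the recovered reads, and leaving out libraries.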

Additional observations from a re-analysis of the deposited data

Results flagged for a closer look

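Values of the 200 steady transcripts as a set and of the named transcripts were examined in 136 groups of 4 libraries for a library far from the other 3, by Dixon's test, which by chance picks about 1 in 20 groups. 10 were picked, 6 of them in zfp1 RNAi day 6 replicate 1 or zfp1 RNAi day 13 replicate 5. The groups share libraries, so they are not independent.

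In zfp1 RNAi day 6 replicate 1, SMED30034706 stood at 0.265 RPKM while the other 3 libraries had 11.8 to 13.1 RPKM, and SMED30028462 at 20.4 RPKM, against 18.6 to 18.7 RPKM. In zfp1 RNAi day 13 replicate 5, the steady transcripts took 0.841% of the reads, against 1.24 to 1.30%. There SMED30028510 stood at 14.5 RPKM, against 24.5 to 25.9 RPKM, SMED30023820 at 4.49 RPKM, against 12.9 to 14.1 RPKM, and SMED30013475, the transcript just outside the set, at 69.9 RPKM, against 87.4 to 91.0 RPKM.

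The median RPKM of the set was 22.0 in p53 RNAi day 9 replicate 4, against 19.4 to 19.8 in the other 3, and 18.4 in unc22 RNAi day 6 replicate 1, against 19.3 to 19.5. In unc22 RNAi day 6 replicate 4, SMED30014647 stood at 34.3 RPKM, against 31.1 to 31.7 RPKM, and SMED30034766 at 259 RPKM, against 238 to 239 RPKM.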

How the results depend on the processing

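The count of called steady transcripts was 0 in 6 of 9 comparisons under all alternatives run. For p53 RNAi against control on day 13 it was 1 with a pseudocount of 0.1 RPKM, with no filter and with a mean of at least 5 RPKM, and 1 without the 3 libraries that stood apart. It was 11, all higher, with quantile scaling, where the median log2 fold change of the 200 was 0.21 against -0.02 for all tested transcripts. In this comparison 17.3% of all tested transcripts were called as reported and 14.4% without the 3 libraries. The shares under the other settings named here are not given, so nothing is read from these counts alone. Leaving out 1 library at a time gave 0 to 4, with 4 without unc22 RNAi day 13 replicate 1, 3 without zfp1 RNAi day 6 replicate 1 or zfp1 RNAi day 13 replicate 5, and 2 without unc22 RNAi day 13 replicate 4 or zfp1 RNAi day 6 replicate 4. Without the 3 libraries, p53 RNAi against control on day 9 and p53 RNAi on day 13 against day 6 gave 2 each. The shares of all tested transcripts called there were 9.46% and 13.5%. The cause of these shifts was not tested.

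The count with intervals inside 1.5-fold in all 6 comparisons, 129, was 50 with the compared groups fitted alone, which leaves fewer libraries for the spread, 195 without the 3 libraries, 122 with limma-voom and 91 to 148 when leaving out 1 library. With a replicate block, fitted on the compared groups alone, it was 86, and 0 were called in all 9 comparisons. The share of all tested transcripts with such intervals is not given here for these alternatives. The median replicate SD lay between 0.175 and 0.217 when leaving out 1 library. The rule took 98 of the same 200 with the mean of the log2 values in place of the median, 90 with a minimum of 20 RPKM, which 103 of the set do not reach in the control, 131 without the 3 libraries, and 92 to 188 when leaving out 1 library. With 3 or 4 libraries a group, 17.0% of simulated 1.5-fold changes for p53 RNAi on day 13 were recovered. Differences of that size can thus go uncalled, but that share does not describe the steady transcripts. Their median standard error was 0.159 in this comparison, against 0.248 for all tested transcripts. The simulation changed 100 of 19206 transcripts by each fold, while 17.3% of all tested were called in the data, which makes the adjusted p stricter in the simulation.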
